A study of Mus musculus with 16 samples.

Results

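The mouse microRNAs mmu-miR-21a-5p, mmu-miR-21a-3p and mmu-miR-31-5p, written below without their prefix, are 3 of the 1915 mature microRNA entries counted in extracellular vesicles (EVs) of mouse bone marrow plasma, and they were chosen by name because miR-21 and miR-31 are known from osteoclasts. The EVs came from C57BL/6N mice aged 6 months, all of which carried the CAGS-Snorkel reporter and 1 Cre driver. The Ocn group (CAGS-Snorkel//Ocn-Cre) held 6 mice, 3 male and 3 female, and the Prx1 group (CAGS-Snorkel//Prx1-Cre) held 10 mice, 5 male and 5 female. Sex was not given per library. The osteocalcin promoter of Ocn-Cre is active in mature osteoblasts and osteocytes, and the Prx1 enhancer of Prx1-Cre is active in early limb mesenchyme, whose descendants include osteoblasts, cartilage and marrow stroma. Neither driver is meant to mark osteoclasts, which descend from blood-forming cells. EVs were captured on magnetic beads through an HA tag. A table of microRNAs holds no measure of that capture. No library of a Cre-negative mouse or of whole plasma was analysed, so the level that the beads bind without the tag is unknown here.

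Osteoclasts are the cells that resorb bone, and they form by fusion of precursors of the monocyte and macrophage lineage under the cytokines M-CSF and RANKL. In mouse precursors miR-21 has been reported to rise under RANKL and to repress Pdcd4, a restraint on the transcription factor c-Fos, while miR-31 has been reported to act on RhoA and the actin ring with which the cell seals onto bone. Both are widespread outside bone: miR-21 is abundant in most tissues and in leukocytes, and miR-31 is also known from epithelia. A microRNA hairpin is cut into a 5p and a 3p strand, of which usually 1 is kept as the guide and the other is degraded.

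The mature sequences are shown so that bases 2 to 8, the seed that pairs with target messages, can be compared between each microRNA and its relatives. They are from RefSeq on GRCm38 (mm10), 5′ to 3′, with the seed in capitals:
miR-21a-5p: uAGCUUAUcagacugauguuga
miR-21a-3p: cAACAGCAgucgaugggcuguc
miR-31-5p: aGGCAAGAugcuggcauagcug
miR-31-3p: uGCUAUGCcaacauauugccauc
miR-21c: uAGCUUAUcagacugguacaa
miR-21b: uAGUUUAUcagacugauauuucc

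The 3 microRNAs have 3 different seeds, so no seed links miR-21a with miR-31. Of the 1915 entries, 1623 had a RefSeq mature sequence, and among the mature sequences of that table only miR-21c shared a seed with any of the 3, that of miR-21a-5p. Entries without a sequence there could not be checked, so further relatives by seed may be among them. Counted from 1 at the 5′ end of miR-21a-5p, miR-21c differs by A16G, G18A, U19C, U20A and G21A, and miR-21b differs by C4U, which lies in the seed, and by G18A, G21U and A22C. Both relatives were listed at 0 counts in all 16 libraries, so the counts of miR-21a-5p were not divided with them in the deposited table.

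Mir21a lies at chr11:86584067-86584158 on the minus strand of GRCm38, wholly within the untranslated part of exon 12 of Vmp1, a protein-coding gene of autophagy that runs in the same direction. Mir31 lies at chr4:88910557-88910662 on the minus strand, inside exon 3 of the lincRNA AL805899.1 of the same strand, and the nearest protein-coding gene is the interferon gene Ifne, 30356 bp away. The Mir31 hairpin is printed because its arms differed in the libraries, with the 5p arm (first) and the 3p arm (second) in capitals:
Mir31: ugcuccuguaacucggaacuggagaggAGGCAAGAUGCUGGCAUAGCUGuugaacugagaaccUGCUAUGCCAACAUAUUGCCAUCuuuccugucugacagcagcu

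Library totals ran from 582660 to 1536421 counts among the Ocn mice and from 225273 to 813770 among the Prx1 mice, so depth differed with the group (mean log10 total of 5.94 ± 0.17 in Ocn, n = 6, and 5.58 ± 0.16 in Prx1, n = 10, SD; exact permutation test, 2-sided, p = 0.00112). Levels below are in CPM, a count divided by its library total and put on the usual common scale, unless another scaling is named. Each list of marker microRNAs of other cells had counts in every library when summed. The 5 myeloid and pan-leukocyte markers, which include miR-223-3p and miR-142a-3p, summed to 45206 to 100790 CPM in Ocn and 46029 to 74769 CPM in Prx1. Sums of the 3 muscle markers were 46680 to 77323 CPM in Ocn and 39775 to 70705 CPM in Prx1. Endothelial markers (2) summed to 16712 to 20837 CPM in Ocn and 12913 to 19289 CPM in Prx1. Chondrocyte markers (2) gave 5266 to 6792 and 3672 to 11269 CPM in Ocn and Prx1. Lymphoid markers (2) gave 2019 to 4495 and 2780 to 5828 CPM, and liver markers (2) 160 to 304 and 139 to 1910 CPM. The 5 mesenchymal markers summed to 31426 to 43032 CPM in Ocn and 26518 to 34989 CPM in Prx1, the 4 erythroid markers to 14654 to 27749 CPM in Ocn and 18434 to 27471 CPM in Prx1, and the 6 epithelial markers to 258 to 463 CPM in Ocn and 232 to 360 CPM in Prx1. By edgeR, 1 of the 5 mesenchymal markers was higher in Ocn (miR-199a-5p). Lower were 1 of the 4 erythroid (miR-486a-5p), 1 of the 2 lymphoid (miR-150-5p) and 1 of the 3 muscle markers (miR-133a-3p). Of all 234 tested, 14 entries (5.98%) were higher and 18 (7.69%) lower. Log2 fold changes of Ocn over Prx1 were -0.38 for miR-486a-5p, against 0.58, 0.17 and 0.22 for miR-144-3p, miR-144-5p and miR-451a. In the muscle list they were -0.68 (miR-133a-3p), -0.29 (miR-206-3p) and 0.34 (miR-1a-3p). In the mesenchymal list they were 0.43 (miR-199a-5p), 0.11 (miR-199a-3p), 0.29 (miR-143-3p), -0.29 (miR-214-3p) and -0.19 (miR-145a-5p). No marker of these lists was at 0 in all libraries. What part such cells have in the values of miR-21a and miR-31 was not tested.

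miR-21a-5p was an abundant microRNA of both kinds of EV, miR-31-5p was near the lower edge of what could be tested, and miR-21a-3p was below it. None of the 3 differed between Ocn and Prx1 EVs past the threshold. miR-21a-5p made up 1.30% ± 0.22 of the counts of Ocn libraries (SD, n = 6) and 1.23% ± 0.20 of those of Prx1 libraries (SD, n = 10). By mean CPM it stood at place 15 of 872 entries detected in Ocn and at place 16 of 811 detected in Prx1. miR-31-5p stood at place 226 in Ocn and also at place 226 in Prx1, and miR-21a-3p stood at place 277 in Ocn and place 313 in Prx1. All 3 are 22 bases long, so these counts need no correction for length, although adaptors ligate to some sequences better than to others, so places compare counts and not molecules.

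**Figure D1:**
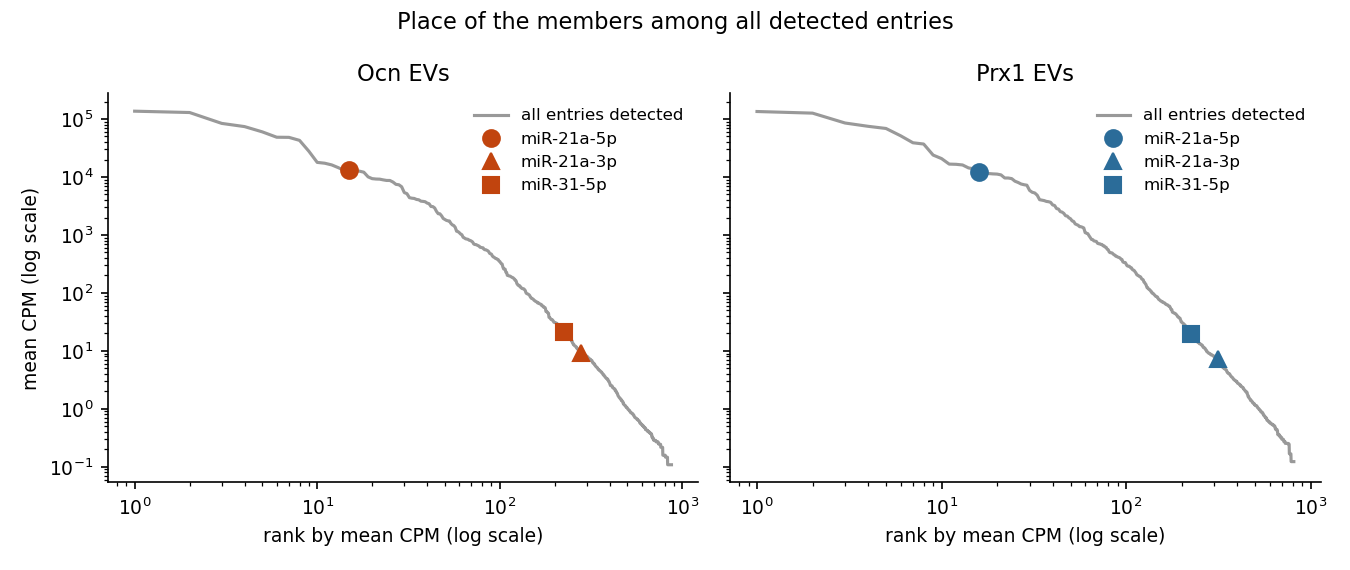
Mean CPM (log scale) of every detected entry against its rank (log scale) in Ocn EVs (left) and Prx1 EVs (right), with the 3 microRNAs as symbols. miR-21a-5p lies at place 15 in Ocn and 16 in Prx1, and miR-31-5p and miR-21a-3p lie about 3 orders of magnitude lower on both curves.

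miR-21a-5p, the guide strand reported to promote osteoclast formation, was counted 7369 to 20294 times per library in Ocn and 2740 to 10720 times in Prx1. Its level had a lowest, median and highest value of 9754, 13272 and 16325 CPM in Ocn and of 9220, 12424 and 15095 CPM in Prx1. Ocn 3 was highest and Prx1 10 lowest, and the groups overlapped over most of their range. Inside the range of Prx1 lay 5 of 6 Ocn libraries, and 8 of 10 Prx1 libraries lay inside the range of Ocn. The share of all entries whose groups overlap was not counted, here or for the microRNAs below. The means were 13044 ± 2160 CPM in Ocn EVs (SD, n = 6) against 12330 ± 2031 CPM in Prx1 EVs (SD, n = 10). The log2 fold change of Ocn over Prx1 was 0.04 (SE 0.12, 95% interval -0.21 to 0.29; edgeR quasi-likelihood test on TMM-scaled counts, adjusted p = 0.850). Without any single library the value stayed between 0.00057 and 0.09. In bulk EVs, fewer vesicles of a source and fewer copies per vesicle cannot be told apart.

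Across all entries, 32 of the 234 tested were called at an adjusted p under 0.05, or 13.7%, and 62 had an unadjusted p under 0.05. With log10 library total as a covariate, 0 entries were called by edgeR and 40 had an unadjusted p under 0.05. Against the background of 13.7%, 0 of the 2 members tested were called by edgeR, and 0 had an unadjusted p under 0.05. DESeq2 called 42 of the 234 entries and 0 of the 2 members. Of the 234 entries, 23 had a fold change of smaller size than miR-21a-5p, and 46 had one of smaller size than miR-31-5p.

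The spread of miR-21a-5p between mice lay near the middle of that of other abundant microRNAs. Its coefficient of variation was 16.6% in Ocn and 16.5% in Prx1, where counting error alone would give 0.965% in Ocn and 1.5% in Prx1. Among the 30 most abundant entries, 16 had a smaller coefficient in Ocn (median 15.6%, range 4.71% to 53.9%) and 18 had a smaller one in Prx1 (median 14.5%, range 3.24% to 56.0%). The nearest entries by mean level in Ocn were miR-486a-5p, an erythroid microRNA, at 13100 ± 3048 CPM above it and miR-486b-5p, whose reads may be shared with miR-486a-5p, at 12999 ± 3028 CPM below it (SD, n = 6). In Prx1 the neighbours were miR-143-3p, known from smooth muscle and stroma, at 13794 ± 1835 CPM above it and miR-148a-3p at 12196 ± 2762 CPM below it (SD, n = 10). miR-21a-5p was not set apart from any of these neighbours by more than the spread between libraries.

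**Figure D2:**
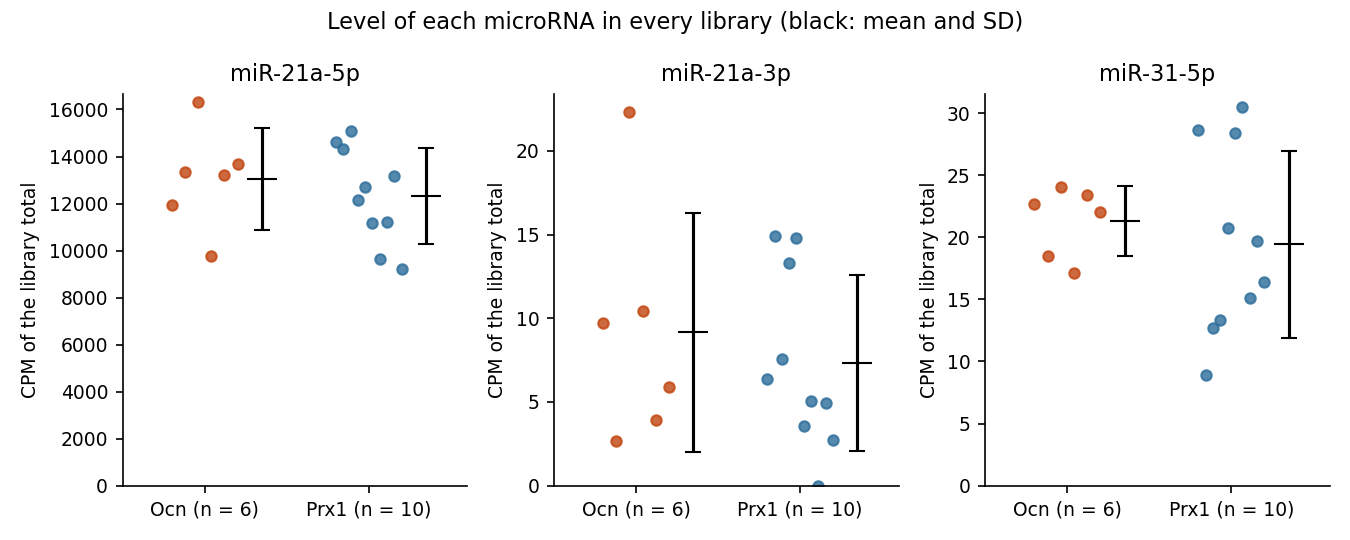
Level of miR-21a-5p, miR-21a-3p and miR-31-5p in CPM of the library total, 1 point per library, with Ocn (n = 6) left of Prx1 (n = 10) and the mean and SD in black. The groups overlap for all 3, and the scale of miR-21a-5p (9220 to 16325 CPM) is far above those of the other microRNAs (0 to 30.5 CPM).

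miR-31-5p, the guide strand of Mir31, was rare in every library, with 14 to 36 counts in Ocn, against 3 to 16 counts in Prx1, and 196 counts in all. Its lowest, median and highest levels were 17.1, 22.4 and 24.0 CPM in Ocn and 8.93, 18.0 and 30.5 CPM in Prx1. All 6 Ocn libraries lay inside the range of Prx1, while 3 Prx1 libraries (Prx1 1, Prx1 6 and Prx1 7) lay above every Ocn library. The means were 21.3 ± 2.8 CPM in Ocn EVs (SD, n = 6) against 19.4 ± 7.5 CPM in Prx1 EVs (SD, n = 10). The log2 fold change was 0.09 (SE 0.24, 95% interval -0.41 to 0.59; edgeR adjusted p = 0.849).

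The wider scatter of miR-31-5p in Prx1 went with shallower libraries. Its coefficient of variation was 13.3% in Ocn and 38.8% in Prx1, and counting error alone would give 23.9% in Ocn and 37.8% in Prx1. The chi-square of its counts against the library totals was 0.379 per degree of freedom in Ocn, 1.02 in Prx1 and 0.736 over all 16 libraries, where a value of 1 is what counting error gives. No library fell outside the 95% range of counting error around the pooled level of 20.3 CPM (95% Poisson interval 17.5 to 23.3, counting error only). Variation of miR-31-5p between libraries beyond counting error was thus not detectable at this depth.

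The other arm, miR-31-3p, was listed at 0 in all 16 libraries. Against the 196 counts of the 5p arm, a count of 0 allows the 3p arm at most 1.53% of the counts of the hairpin. Per library, that limit of 3 counts corresponds to 1.95 CPM in the deepest library (Ocn 5) and 13.3 CPM in the shallowest (Prx1 4).

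miR-21a-3p, the strand of Mir21a that is mostly degraded, had 69 counts in all, 3 to 13 per library in Ocn and 0 to 5 per library in Prx1. Its lowest, median and highest levels were 2.64, 7.80 and 22.3 CPM in Ocn and 0, 5.72 and 14.9 CPM in Prx1. Ocn 3 was highest, as it was for miR-21a-5p, and Prx1 8 was the only library with no count. The means were 9.15 ± 7.15 CPM in Ocn EVs (SD, n = 6) against 7.33 ± 5.27 CPM in Prx1 EVs (SD, n = 10; exact permutation test, 2-sided, p = 0.571).

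miR-21a-3p did not reach the low-count filter, and with all 973 detected entries fitted its log2 fold change was 0.35 (SE 0.47, 95% interval -0.57 to 1.27; edgeR adjusted p = 0.673). That fit takes its variance almost wholly from all entries together (13622 degrees of freedom, against 22.5 for miR-21a-5p in the filtered fit). Its interval therefore says little about the spread of miR-21a-3p itself, for which DESeq2 gave an SE of 0.58. In the edgeR fit 27 of 973 entries were called, or 2.77%, with 14 (1.44%) higher and 13 (1.34%) lower in Ocn. With log10 library total as a covariate the value was 1.62 (SE 0.69; edgeR adjusted p = 0.246). The sign of the fold change rested on 1 library: without Ocn 3 it was -0.03 (edgeR adjusted p = 0.971; p ran from 0.246 to 0.971 over all alternatives). The chi-square of its counts per degree of freedom was 4.91 in Ocn and 1.62 in Prx1, and the coefficient of variation in Prx1 was 71.9% where counting error alone would give 61.6%. Ocn 3, with 13 counts, lay above the 95% range of counting error around the pooled level of 7.14 CPM, and Prx1 8 lay below it.

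**Figure D3:**
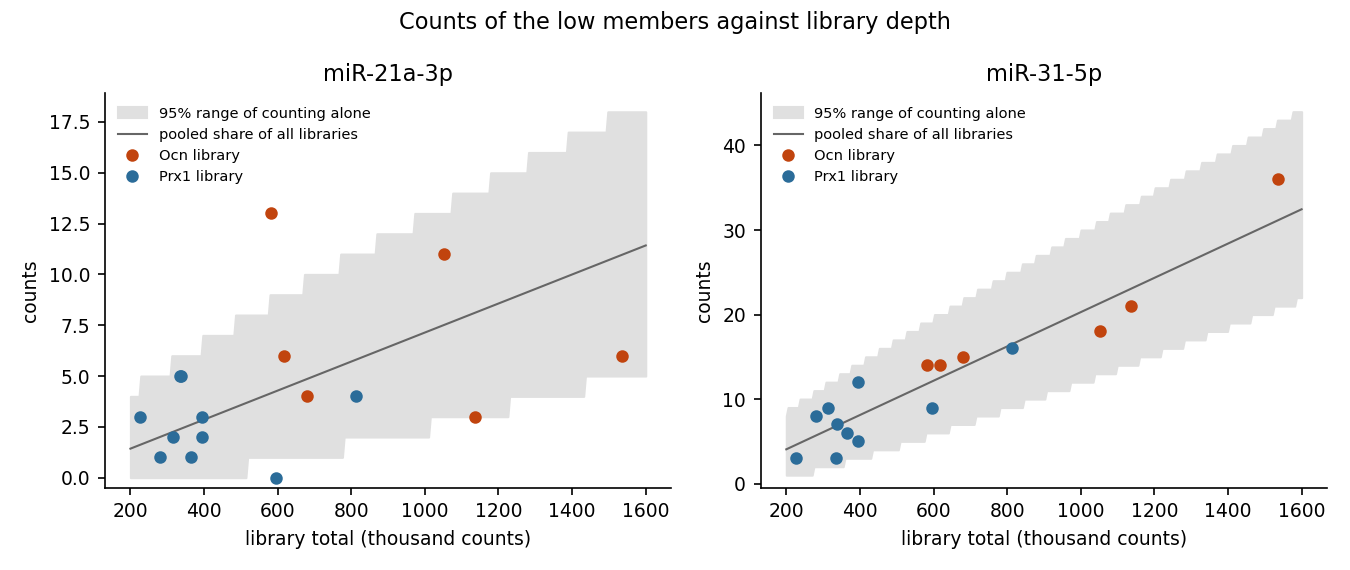
Counts of miR-21a-3p (left) and miR-31-5p (right) against the library total, 1 point per library, with the pooled share of all 16 libraries as a line and the 95% range of counting error as a grey band. All 16 points of miR-31-5p lie in the band, while Ocn 3 (13 counts) and Prx1 8 (0 counts) lie outside it for miR-21a-3p.

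The strands of Mir21a were counted very unequally in both groups. The 3p strand held 43 of 71941 Mir21a counts in Ocn, or 0.0598% (95% Clopper-Pearson interval 0.0433% to 0.0805%), and 26 of 50145 in Prx1, or 0.0519% (0.0339% to 0.0760%), where the intervals cover counting error only. Per library the share ran from 0.0198% to 0.136% in Ocn and from 0% to 0.117% in Prx1. In Prx1 8 the count of 0 among 6699 gives an upper limit of 0.0448%, with 3 counts as the limit as for miR-31-3p. As a mean over libraries the share was 0.0695% for Ocn and 0.0575% for Prx1, a difference that an exact permutation test did not call (2-sided, p = 0.580). With 0.5 added to every count, the log2 of 5p over 3p averaged 10.69 ± 1.05 in Ocn EVs (SD, n = 6) against 10.82 ± 1.19 in Prx1 EVs (SD, n = 10), a difference of -0.14 (exact permutation test, 2-sided, p = 0.828). That sign turned without Ocn 3 (0.11), without Ocn 4 (0.04) and without Prx1 8 (0.18). It also turned with 1 added to each count (0.06), so no direction can be given for the strand ratio.

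A ratio of members within a library does not depend on how libraries are scaled. miR-21a-5p outnumbered miR-31-5p by a lowest, median and highest factor of 526.4, 595 and 721 in Ocn and of 317, 641 and 1605 in Prx1. All Ocn libraries lay inside the range of Prx1, whose extremes were Prx1 7 (12 counts of miR-31-5p) and Prx1 2 (3 counts). The log2 ratio averaged 9.21 ± 0.17 in Ocn EVs (SD, n = 6) against 9.28 ± 0.66 in Prx1 EVs (SD, n = 10), a difference of -0.07 (exact permutation test, 2-sided, p = 0.811). Without Prx1 2 the difference was 0.06 and without Prx1 3 it was 0.02.

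When every library was thinned to 225273 counts, the depth of the shallowest, miR-21a-5p had 2140 to 3707 counts (median 2998) in Ocn, against 2043 to 3392 counts (median 2785) in Prx1. miR-31-5p had 1 to 8 counts in Ocn and 2 to 9 in Prx1. miR-21a-3p had 0 to 4 counts in Ocn and 0 to 5 in Prx1, and was at 0 in 1 Ocn and 3 Prx1 libraries. At equal depth the groups thus overlapped for each of the 3 as well. How many of all entries overlap was not counted, so it cannot be said whether overlap is particular to the 3. For miR-31-5p and miR-21a-3p that overlap says little, because so few counts could hardly keep groups apart.

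**Figure D4:**
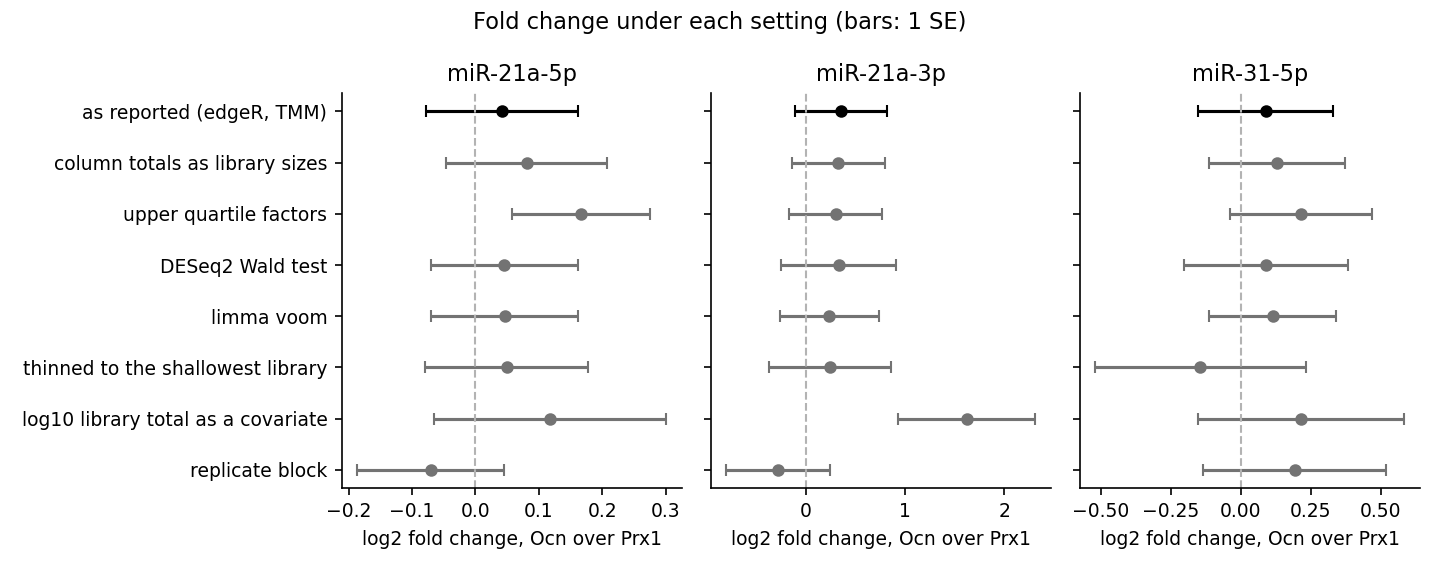
Log2 fold change of Ocn over Prx1 (bars: 1 SE) for miR-21a-5p, miR-21a-3p and miR-31-5p as reported and under 7 other settings. The reported values are 0.04, 0.35 and 0.09, miR-21a-5p and miR-21a-3p lie below 0 with the replicate block, and miR-31-5p lies below 0 after thinning.

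The members did not vary together between libraries past the threshold. Over the 16 libraries the log2 CPM of the strands of Mir21a had a Pearson r of 0.39 (permutation p = 0.132, adjusted p = 0.488 over 9 relations) and a Spearman rho of 0.40 (permutation p = 0.124, adjusted p = 0.559), and r was 0.34 without the 2 libraries farthest from the median of miR-21a-5p. Within the groups r was 0.14 in Ocn (n = 6, exact permutation p = 0.813) and 0.48 in Prx1 (n = 10, permutation p = 0.163). For miR-21a-5p and miR-31-5p, r was -0.12 over all 16 libraries (permutation p = 0.673; rho -0.05, permutation p = 0.864), 0.71 in Ocn (n = 6, exact permutation p = 0.104) and -0.35 in Prx1 (n = 10, permutation p = 0.325). The value in Ocn rested on 2 libraries, as it was -0.31 without those farthest from the median. Of the 9 relations of a member with the log10 library total, 0 passed, and the smallest adjusted permutation p of a Pearson r was 0.594.

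Among the 234 tested entries, those whose level followed miR-21a-5p most closely over the 16 libraries were miR-676-5p (Spearman rho 0.84), miR-322-5p (0.83), miR-10a-5p (0.78), the erythroid miR-144-5p (0.76) and the leukocyte microRNA miR-142a-3p (0.74), against a median rho of 0.09 over the 233 entries compared. Within the groups rho with miR-676-5p was 0.83 in Ocn and 0.84 in Prx1, and with miR-142a-3p it was 0.60 in Ocn and 0.78 in Prx1. For miR-31-5p the closest were miR-125a-5p (0.84), miR-30a-3p (0.78), miR-6240 (0.76), miR-1306-5p (0.76) and miR-34a-5p (0.73), with a median of 0 over all compared. Counts of miR-31-5p are few, and its variation between libraries was not detectable beyond counting error. Whether its values of rho go beyond counting error was not tested. For miR-21a-3p, whose counts are few, they were miR-146a-5p (0.74), miR-210-3p (0.55), miR-151-5p (0.55), miR-142a-3p (0.53) and miR-186-5p (0.53). Some of these values differed between the groups: for miR-21a-3p, rho with miR-142a-3p was 0.03 in Ocn and 0.78 in Prx1, and with miR-186-5p it was 0.20 in Ocn and 0.65 in Prx1. For miR-31-5p, rho with miR-6240 was 0.26 in Ocn and 0.80 in Prx1. Other values went the other way: rho of miR-31-5p with miR-34a-5p was 1.0 in Ocn and 0.52 in Prx1. Likewise, rho of miR-21a-5p with miR-10a-5p was 0.94 in Ocn and 0.62 in Prx1. Values within Ocn rest on 6 libraries and those within Prx1 on 10, and these differences were not tested. These values describe 16 libraries that share scaling to their own totals, and they were picked as the highest of many.

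The wider set of microRNAs reported in osteoclast formation is given beside the shares over all entries tested. Of 18 listed, 16 were tested. Among these 1 was higher and 1 was lower in Ocn by edgeR, while 3 had an unadjusted p under 0.05. Their median log2 fold change was 0.04, beside 0.01 over all 234 tested, of which 14 (5.98%) were called higher and 18 (7.69%) lower in Ocn. Of all 234, 62 had an unadjusted p under 0.05 by edgeR. Whether the set differs from these shares was not tested.

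Of 6 microRNAs reported to promote osteoclast formation or function, 1 was higher in Ocn and 0 were lower, with a median of 0.07. Over all 234 tested, 5.98% were higher and 7.69% lower. The call was miR-199a-5p, also a microRNA of mesenchymal cells, at 683 ± 191 CPM in Ocn EVs (SD, n = 6) against 494 ± 75 CPM in Prx1 EVs (SD, n = 10), with a log2 fold change of 0.43 (SE 0.13, edgeR adjusted p = 0.0290). That call was lost without any of Ocn 3, Ocn 4, Prx1 1, Prx1 2, Prx1 3, Prx1 9 or Prx1 10 (highest adjusted p = 0.137 by edgeR) and in 3 of 11 other settings. Its log2 fold change stayed between 0.30 and 0.47 with a library left out and between 0.39 and 0.63 in the other settings. The rest of the list besides the members gave 0.20 (SE 0.21) for miR-148a-3p, -0.29 (SE 0.15) for miR-214-3p and -0.05 (SE 0.23) for miR-183-5p. miR-148a-3p was close to miR-21a-5p in level, at 14561 ± 7843 CPM in Ocn EVs (SD, n = 6) against 12196 ± 2762 CPM in Prx1 EVs (SD, n = 10).

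Of 7 microRNAs reported to restrain osteoclast formation, 5 were tested and 0 were called by edgeR, beside 13.7% of all 234 tested. Their median was 0.19. Beside 62 of all 234 entries, 1 of the 5 had an unadjusted p under 0.05 by edgeR. That was miR-26a-5p, at 27824 ± 2057 CPM in Ocn EVs (SD, n = 6) against 23900 ± 775 CPM in Prx1 EVs (SD, n = 10), with a log2 fold change of 0.19 (SE 0.08, edgeR adjusted p = 0.154). The others gave 0.35 (SE 0.23) for miR-503-5p, 0.26 (SE 0.31) for miR-125a-5p, 0.13 (SE 0.18) for miR-34a-5p and -0.00 (SE 0.20) for miR-146a-5p, a brake on inflammatory signalling. miR-124-3p was at 0 in all 16 libraries, and miR-7b-5p had 6 counts in all.

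Of 5 microRNAs reported both ways, 0 were higher and 1 was lower in Ocn, with a median of -0.27. Over all 234 tested, 5.98% were higher and 7.69% lower. The call was miR-29a-3p, known for its collagen targets, at 12624 ± 2063 CPM in Ocn EVs (SD, n = 6) against 20782 ± 6158 CPM in Prx1 EVs (SD, n = 10), with a log2 fold change of -0.76 (SE 0.18, edgeR adjusted p = 0.00756). It was kept without any single library (highest edgeR adjusted p = 0.0177) and was lost with log10 library total as a covariate (edgeR adjusted p = 0.0869), while its log2 fold change stayed between -0.90 and -0.63 over all 11 other settings. miR-223-3p, a myeloid microRNA, gave -0.27 (SE 0.14, edgeR adjusted p = 0.229) and miR-155-5p, known from activated leukocytes, gave -0.25 (SE 0.12, edgeR adjusted p = 0.182). The paralogs of miR-29a-3p gave -0.29 (SE 0.16) for miR-29c-3p and 0.04 (SE 0.15) for miR-29b-3p.

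**Figure D5:**
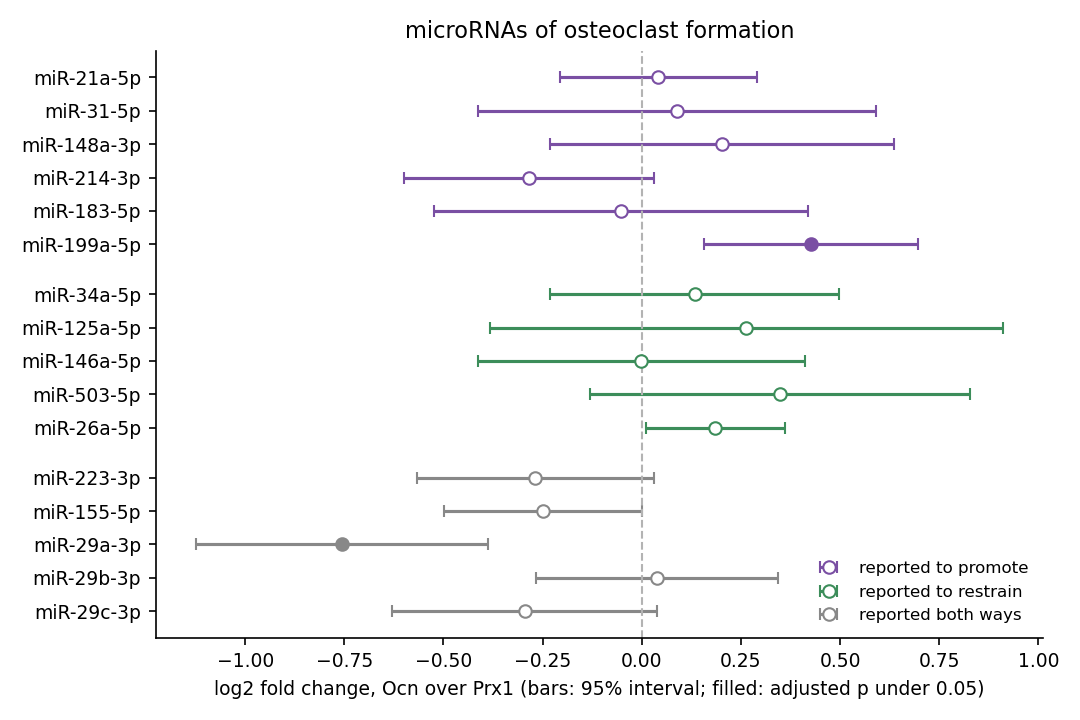
Log2 fold change of Ocn over Prx1 with its 95% interval for the 16 tested microRNAs reported in osteoclast formation, by list, with filled points for calls. The intervals of miR-21a-5p and miR-31-5p include 0, and the calls are miR-199a-5p (0.43) and miR-29a-3p (-0.76).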

How the data were processed

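The deposited table gives counts for each mature microRNA and library that the authors had not normalized, as judged from its whole-number values. Per the labels' protocols, RNA was built into libraries with a QIAseq kit, whose adaptor ligation can favour some sequences. The build mm10 and the trimming tool cutadapt 1.18 are named per the submitters' processing notes. The aligner, the counter, and the use of unique molecular identifiers are details not given in the sources used here.

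Of 1915 entries, 973 had counts and 234 passed filterByExpr. They were tested with the quasi-likelihood test in edgeR 4.0.16 (R 4.3.3; TMM, robust fit, no covariate). P-values were adjusted after Benjamini and Hochberg, with a threshold of 0.05. The fit was also run on simulated counts, whose outcome is not given here. Changes planted there were larger than those reported for the members, so that run cannot show what is detectable at their size. miR-21a-3p failed the filter, so it was fitted without a filter, and its strand ratio was tested by exact permutation over 8008 splits (alone, not with limma over hairpins as planned). Further settings used DESeq2 1.42.0, limma 3.58.1 and scipy 1.17.1.

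The microRNAs and lists were chosen with earlier results of these data known. Those named are the 3 members, miR-31-3p, entries that share a seed, list members called or with the 4 smallest p, and the 5 entries most alike to each member. Others named (miR-21b, neighbours in level, and list members shown at 0 or few counts) were added after their values were seen. Nothing says how litters or handling were shared among the mice. P-values therefore measure the spread between these libraries, except in the edgeR fit without a filter, where the variance is shared over all entries. All 60 same-group pairs differed by more than sampling noise (chi-square over degrees of freedom at least 5.04).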

Additional observations from a re-analysis of the deposited data

Results flagged for a closer look

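The log2 ratio of miR-21a-5p to miR-21a-3p in Prx1 8 was 13.71, far above the other 9 Prx1 libraries (9.61 to 11.22). Prx1 8 had 0 counts of miR-21a-3p, where its depth at the pooled level gives 4.26, and the value therefore depends on the 0.5 added to each count. Of 10 sets of libraries examined in this way, 1 was so marked, and chance marks about 1 in 20.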

How the results depend on the processing

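Under all settings run, 0 of the 3 fold changes, the strand ratio and the ratio of miR-21a-5p to miR-31-5p passed the threshold. Signs turned as follows. The replicate block gave -0.070 for miR-21a-5p, -0.28 for miR-21a-3p and 0.42 for the strand ratio (pairs 1 to 6), and 27 calls in place of 32. The replicate numbers pair nothing in the labels, same-numbered libraries correlated by over 0.1 in deviation for 4 and 5 but not for 1, 2, 3 and 6, and 0 of 6 Ocn libraries matched their own number best. Thinning gave -0.14 for miR-31-5p and 0.28 for the ratio of miR-21a-5p to miR-31-5p, and 1 added to each count gave 0.064 for the strand ratio. With one library left out, the values ran from 0.00057 to 0.09 for miR-21a-5p, -0.026 to 0.56 for miR-21a-3p, 0.0035 to 0.21 for miR-31-5p, -0.42 to 0.18 for the strand ratio, -0.18 to 0.060 for the ratio of members, and 22 to 40 calls. With log10 library total as a covariate 0 entries were called by edgeR (40 with an unadjusted p under 0.05), and miR-21a-3p gave 1.62 (edgeR adjusted p = 0.246). Upper quartile scaling moved the median of all fold changes to 0.13, and miR-21a-5p gave 0.17. With a minimum of 10 CPM in 6 libraries, miR-21a-3p gave no value. The exact permutation tests of CPM and of the strand share were chosen after seeing the data. The cause of these shifts was not tested. For the strand ratio, limma with the covariate or with a count minimum was not run. Depth limits miR-21a-3p and miR-31-5p.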
